A study of Mus musculus with 24 samples.

Results

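The comparison described here is the response to GW0742, a synthetic agonist of the nuclear receptor PPAR-beta/delta, in mouse primary keratinocytes that lack this receptor and carry an Hras retrovirus. Its members are 6 of the 24 arrays of the series, chosen by their titles: 3 of Ppar-beta null, Hras-transduced cells given 1 uM GW0742 and 3 of the same cells given the solvent DMSO, compared over all 19937 genes that have a probe set naming them alone. All cells were C57/BL6 keratinocytes grown for 2 days before infection, the virus had been on for 48 hours, and the ligand was given for 24 hours. The other 18 arrays, 3 per group, hold mock-infected null cells and both mock-infected and Hras-transduced wild-type cells, each with and without GW0742. The labels do not say whether the 3 arrays of a group came from separate mice or cultures, so the p-values measure the spread between arrays, which may be technical. Comparing ligand with solvent in null cells asks which responses to GW0742 occur without the receptor it was made for.

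PPAR-beta/delta, encoded by Ppard, is a ligand-activated transcription factor that pairs with RXR on DNA and raises genes of fatty acid uptake, oxidation and storage, with Pdk4 and Angptl4 among its best known targets. In the epidermis it is also known for promoting terminal differentiation, in which basal keratinocytes stop dividing, build a cornified envelope and secrete barrier lipids. Activated Hras drives growth signalling in keratinocytes and is the classical initiating oncogene of mouse skin tumours.

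The values were log2 signals, so a difference of 1 is a doubling. The cells carried keratinocyte markers: Krt14, a basal keratin, read 14.02, 14.06 and 14.04 on the 3 GW0742 arrays and 14.04, 13.96 and 13.97 on the 3 DMSO arrays, among the brightest signals measured. The Ppard probe set does not check the knockout, because the sources used here do not say which part of the gene was deleted. It read 11.36 ± 0.02 (SD, n = 3) in null Hras cells with DMSO, against 11.64 ± 0.04 in wild-type Hras cells with DMSO and 10.62 ± 0.02 in null mock cells with DMSO. GW0742 left it at 11.36 ± 0.14 in null Hras cells, an estimated difference of 0.00 with SE 0.06.

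The 3 null Hras arrays with GW0742 spread more widely than those of any of the other 7 groups. The median over genes of the SD between the 3 arrays was 0.122 in this group and 0.0647 to 0.0798 in the others. Expressed as deviations from the DMSO mean, GW0742 arrays 2 and 3 correlated across genes with r = 0.630, arrays 1 and 2 with r = 0.356, and arrays 1 and 3 with r = 0.00141, where genes are not independent replicates and all 3 arrays share the DMSO mean. On the first principal component of the 6 arrays, which held 44.5% of the variance, GW0742 array 1 lay at -12.1, beside the DMSO arrays at -12.4, -7.30 and -3.47, whereas GW0742 arrays 2 and 3 lay at 12.9 and 22.4. Values are therefore given array by array, always in the order of replicates 1, 2 and 3.

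With GW0742, 700 of the 19937 genes were higher and 301 lower in null Hras cells at an adjusted p under 0.05 by limma, fitted over all 24 arrays with a shared estimate of the spread. These are 3.51% and 1.51% of the genes tested, 5.02% together. For every gene list below, 5.02% is the share called over all genes in this fit, and 1.83% is that share with a weight for each group. For list counts without 1 array, the background is the count over all genes in that refit, given in the next paragraph. The lists were chosen with earlier results of these data known, so a share above the background is no separate support. Of the genes higher, 165 differed by at least 1.5-fold and 30 by at least 2-fold, and of those lower 10 and 0 did. The 3 GW0742 arrays did not overlap the 3 DMSO arrays for 681 of the 700 genes and for 255 of the 301. Over all genes the arrays did not overlap with GW0742 above for 8.62% and below for 6.45%. The called genes were chosen by a test on these same values, so their lack of overlap is no separate support. When the spread was estimated from these 6 arrays alone, no gene passed by limma: 1763 had an unadjusted p under 0.05 and the lowest adjusted p was 0.0507. When each group was given a weight for its own spread, 307 genes were higher, 1.54% of those tested, and 57 lower, 0.286%. With the same weights, 1 gene passed without GW0742 array 2, 147 passed without GW0742 array 3 and 1220 without GW0742 array 1.

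The calls rested unevenly on the single arrays. Without GW0742 array 1 the fit called 1233 genes higher and 1306 lower, and without GW0742 array 2 it called 329 and 64. Without GW0742 array 3 the counts were 576 and 109, without DMSO array 1 468 and 133, without DMSO array 2 649 and 163, and without DMSO array 3 574 and 281. Among the 700 genes called higher on all arrays, the GW0742 array closest to the DMSO mean was array 1 for 491, array 3 for 191 and array 2 for 18. Among the 301 called lower, array 1 was the closest for 271.

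**Figure D1:**
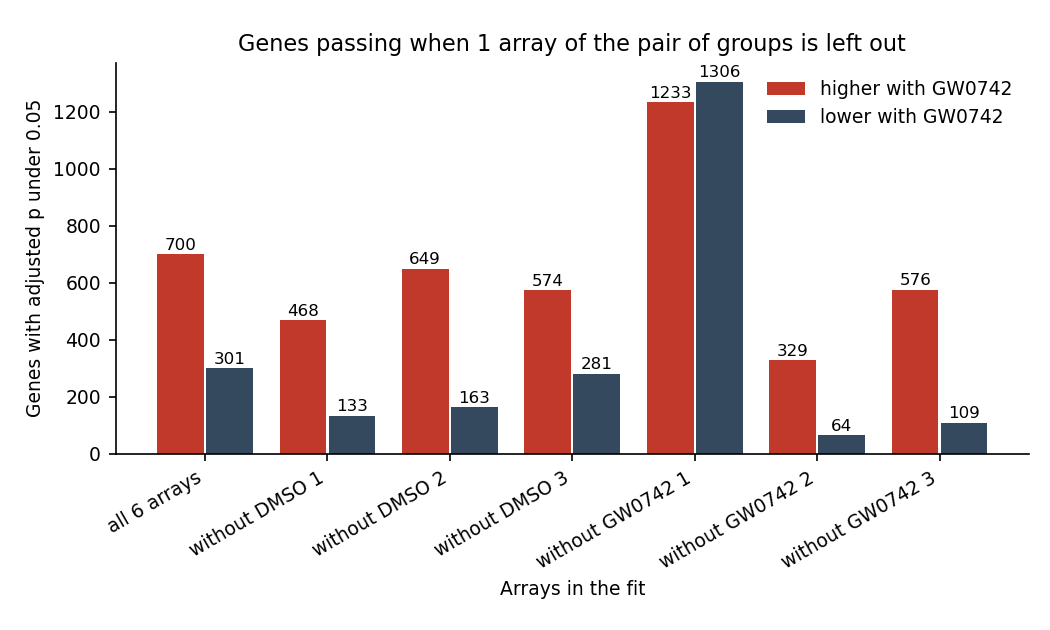
Bars give the number of genes with an adjusted p under 0.05, higher (red) or lower (dark) with GW0742 in Ppard-null Hras cells, in the fit of all 24 arrays and with 1 of the 6 arrays of the comparison left out. The counts fall to 329 higher and 64 lower without GW0742 array 2 and reach 1233 and 1306 without GW0742 array 1.

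Among the usual targets of the receptor the calls were small and rested on single arrays, except for Fabp4. Of 34 measured genes listed as PPAR targets, 5 were higher, 2 lower and 27 did not pass, and their median difference was -0.03, against 0.00 over all genes. The 7 called are 20.6% of the list, where 5.02% of all genes were called. The median turned to a value above 0 without DMSO array 1 or GW0742 array 1 and without dim genes. The count called was 1 with group weights, 1 without DMSO array 1, 2 without DMSO array 2, GW0742 array 2 or GW0742 array 3, and 4 without DMSO array 3. Pdk4, a kinase that keeps pyruvate out of the mitochondrial citric acid cycle, read 6.79, 6.65 and 6.91 with GW0742 and 6.42, 6.47 and 6.60 with DMSO. The arrays did not overlap, and the difference of 0.29 (SE 0.08, adjusted p = 0.0431) was small beside the 5.83 (SE 0.08) seen with the ligand in wild-type Hras cells. Angptl4, a secreted inhibitor of lipoprotein lipase, read 10.31, 9.89 and 9.75 with GW0742 and 10.49, 10.32 and 10.26 with DMSO, lower by 0.37 (SE 0.11, adjusted p = 0.0471), where wild-type Hras cells gave 2.34. Both of these calls were lost when 1 array was left out: Pdk4 without DMSO array 1 or 2 or GW0742 array 3, with an adjusted p of up to 0.193, and Angptl4 without each of the 3 DMSO arrays and without GW0742 array 2 or 3, with an adjusted p of up to 0.23.

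Other markers of receptor activity did not pass: the difference was -0.03 (SE 0.07) for Cpt1a, the carnitine palmitoyltransferase that admits fatty acids to mitochondria, 0.00 (SE 0.05) for the lipid droplet coat gene Plin2, -0.12 (SE 0.08) for the acyl-CoA thioesterase Acot1 and 0.12 (SE 0.05) for Hilpda, a lipid droplet gene also induced by hypoxia. In wild-type Hras cells the corresponding differences were 1.42, 1.32, 1.86 and 2.38. Among 19 genes of mitochondrial fatty acid oxidation, Hadhb was higher by 0.21 (adjusted p = 0.0332) and Acaa2 lower by 0.26 (adjusted p = 0.0331), and each call was lost without 4 of the 6 arrays in turn, with adjusted p of up to 0.199 and 0.212. The other 17 did not pass, with a median over the list of -0.05. In wild-type Hras cells 13 of the 19 were higher, where 4.46% of all genes were, and the median was 0.54.

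One listed PPAR target rose by more than the others in the cells without Ppard. Fabp4, an adipocyte-type fatty acid binding protein, read 9.37, 9.54 and 9.13 with GW0742 and 8.47, 8.38 and 8.28 with DMSO. Every GW0742 array was above every DMSO array, and Fabp4 rose by 0.97 (SE 0.11, adjusted p = 4.96e-05), which is 1.96-fold, and stayed called in all 6 refits that left out 1 array. Like all other genes, it did not pass by limma when the spread came from these 6 arrays alone. In wild-type Hras cells it rose by 1.60 (SE 0.11), more than in null cells (difference -0.64, adjusted p = 0.0412). Cidea, a lipid droplet protein of fat cells, read 8.61, 8.49 and 8.47 with GW0742 and 7.72, 8.26 and 8.09 with DMSO and rose by 0.50 (adjusted p = 0.0211). That call was lost without DMSO array 1 or GW0742 array 2, with an adjusted p of up to 0.153.

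Of 12 measured receptors and cofactors of the PPAR and RXR family, the coactivator genes Ncoa1 and Ppargc1b were higher by 0.32 (adjusted p = 0.00703) and 0.28 (adjusted p = 0.021). Neither passed without GW0742 array 2, with adjusted p of up to 0.0763 and 0.123 over the arrays left out. Pparg, the family member of fat cells, read 7.81, 7.75 and 7.89 with GW0742 and 7.61, 7.65 and 7.62 with DMSO, a difference of 0.19 that did not pass (adjusted p = 0.156).

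**Figure D2:**
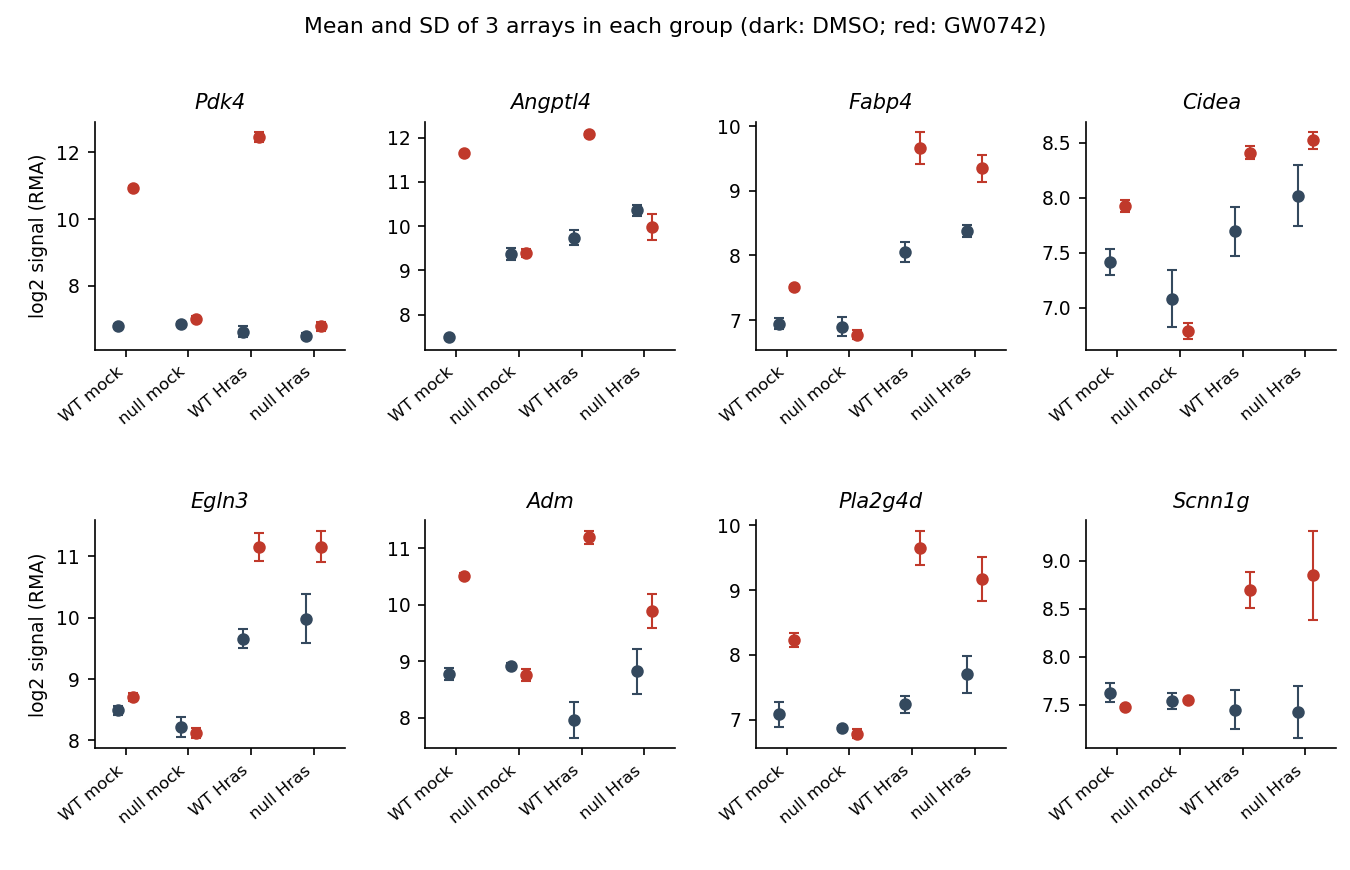
Points give the mean log2 signal of 3 arrays and bars the SD, for 8 genes in the 4 kinds of cells with DMSO (dark) and GW0742 (red). Pdk4 and Angptl4 are raised by the ligand in wild-type cells of both kinds, whereas Egln3, Pla2g4d and Scnn1g are also higher with the ligand in null Hras cells and at the DMSO level in null mock cells.

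The largest rise was that of Pla2g4d, which encodes a cytosolic phospholipase A2 of stratified epithelium. It read 8.97, 9.56 and 8.97 with GW0742 and 7.38, 7.93 and 7.80 with DMSO. The groups were far apart, with DMSO array 1 lowest and GW0742 array 2 highest, and the difference was 1.46 (SE 0.15, adjusted p = 2.47e-05), or 2.76-fold. Its relatives Pla2g4e and Pla2g4f rose by 1.14 and 0.89 (adjusted p = 0.000154 and 0.000368), and Ptges, which makes prostaglandin E2, by 0.37 (adjusted p = 0.00324). In all, 6 of 15 measured genes of cytosolic phospholipases and prostaglandin enzymes were higher and 0 lower, with a median of 0.08. Of these, Hpgd, which inactivates prostaglandins, and Ptgds lost their call without GW0742 array 2, among others, with adjusted p of up to 0.123 and 0.181.

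The beta and gamma subunits of the epithelial sodium channel, which admits sodium through the apical membrane of epithelia, rose together. Scnn1g read 8.47, 9.37 and 8.71 with GW0742 and 7.12, 7.63 and 7.53 with DMSO, and Scnn1b read 9.15, 9.90 and 9.21 with GW0742 against 7.86, 8.52 and 8.24 with DMSO. GW0742 array 2 was the highest for both and no array overlapped. The differences were 1.42 (SE 0.16, adjusted p = 4.85e-05) and 1.21 (SE 0.16, adjusted p = 0.000134). Of the 21 genes listed for this channel and ion transport, 6 were higher and 2 lower. The neutral and cationic amino acid transporter Slc6a14, the scramblase family member Ano9 and the sodium-glucose transporter Slc5a1 rose by 0.81, 0.64 and 0.60, whereas Trpv6, an epithelial calcium channel, fell by 0.59 (SE 0.10, adjusted p = 0.00102) from 8.51, 8.44 and 8.15 on the DMSO arrays to 8.09, 7.60 and 7.65.

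Connexins form gap junctions between neighbouring cells. Gjb2 read 11.11, 11.71 and 11.52 with GW0742 and 10.18, 10.36 and 10.18 with DMSO and rose by 1.20 (SE 0.15, adjusted p = 8.92e-05). Gjb6, the neighbouring gene of the same subfamily, read 9.27, 9.98 and 9.67 with GW0742 against 8.14, 8.48 and 8.41 with DMSO and rose by 1.29 (SE 0.17, adjusted p = 0.000127). In both genes GW0742 array 1 was the closest to DMSO but still above every DMSO array. Of 11 measured connexins and pannexins, 3 were higher, the third being Gja1 with a rise of 0.31, and these 3 calls held in all 6 refits and with group weights.

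**Figure D3:**
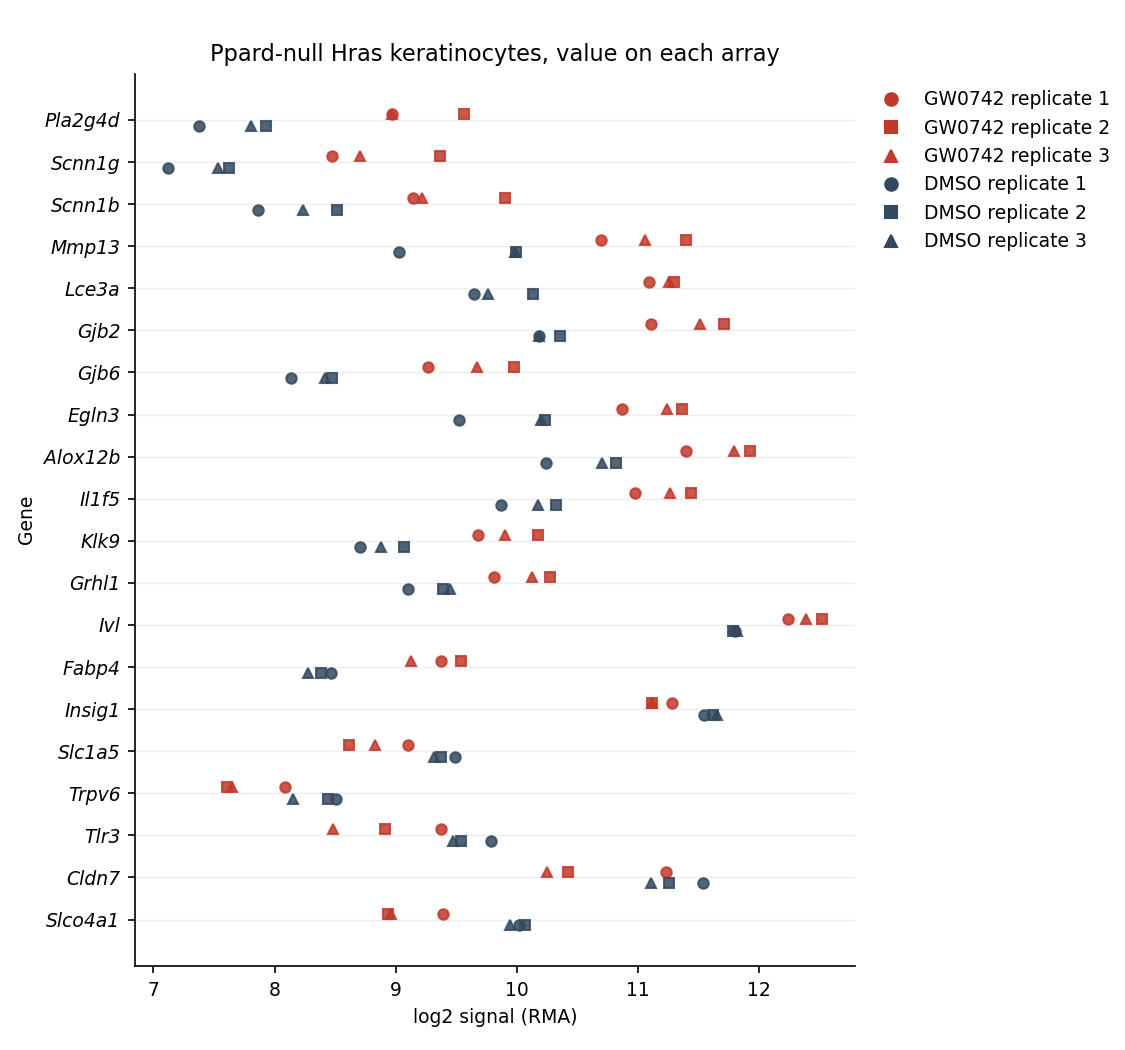
Each point is the log2 signal of 1 gene on 1 array of Ppard-null Hras cells, GW0742 in red and DMSO in dark, with the shape giving the replicate. GW0742 array 2 (square) is the highest for most genes that rose, and for Cldn7 GW0742 array 1 (circle), at 11.23, lies among the DMSO arrays while arrays 2 and 3 lie at 10.42 and 10.25.

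Mmp13, a collagenase induced in wounds and carcinomas, read 10.69, 11.40 and 11.06 with GW0742 and 9.03, 9.99 and 9.98 with DMSO. DMSO array 1 was well below the other DMSO arrays, yet no array overlapped, and the difference was 1.38 (SE 0.22, adjusted p = 0.000717). Other genes of the 15 largest rises without overlap included Dhrs9, a retinol dehydrogenase, which rose by 1.12, Krt75, a keratin of the hair follicle companion layer, by 1.13, and Cpm, a membrane carboxypeptidase, by 1.11, each with an adjusted p of at most 0.0012.

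Genes of the cornified envelope and late differentiation formed the list with the most calls by count. By share, 66% of it was called, against 69.2% of the melanocyte markers, 65.4% of the glycolysis and hypoxia list and 5.02% of all genes. Its Lce and Sprr genes are families of related copies, so its members are not independent. Of 53 measured, 35 were higher, 0 lower and 18 did not pass, the difference was above 0 for all 53, and the median was 0.54. The list median over the DMSO mean was 0.37, 0.69 and 0.53 on the GW0742 arrays, against -0.23, 0.18 and 0.10 on the DMSO arrays. DMSO array 1 stood low and GW0742 array 2 stood high. The count was 14 with group weights, 18 without DMSO array 1, 15 without GW0742 array 2, 24 without GW0742 array 3 and 35 to 39 without any 1 of the other arrays.

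Lce3a, a late cornified envelope gene, read 11.09, 11.30 and 11.26 with GW0742 and 9.65, 10.14 and 9.77 with DMSO and rose by 1.36 (SE 0.20, adjusted p = 0.000301). The 3 GW0742 arrays lay close together and well above the highest DMSO array. Ivl, which encodes the envelope scaffold involucrin, read 12.24, 12.52 and 12.39 with GW0742 against 11.80, 11.79 and 11.82 with DMSO, with the DMSO arrays nearly equal, and rose by 0.58 (SE 0.08, adjusted p = 0.000227). Rptn, the envelope protein repetin, read 7.69, 8.15 and 7.89 with GW0742 against 6.70, 7.03 and 6.92 with DMSO and rose by 1.02 (SE 0.21, adjusted p = 0.00489). Lce3b, Sprr2f, Sprr2g and Sprr2i rose by 1.32, 1.15, 1.06 and 1.01, but the Lce and Sprr genes are families of near-identical copies that could share probes, so which copy changed is uncertain. The Sprr2g call was lost without DMSO array 1 or GW0742 array 2, with an adjusted p of up to 0.0685.

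The promoters of 3 of these rising genes are shown because each holds a letter match to the site of AP-1, the Fos and Jun dimer that acts downstream of Ras signalling. They are the 250 bases before the RefSeq start on GRCm38.p6, 5′ to 3′ on the gene's strand, with every match to TGANTCA on either strand in capitals. Mmp13 (chr9:7272264-7272513, plus strand), Ivl (chr3:92573736-92573985, minus strand) and Rptn (chr3:93393449-93393698, plus strand) have 1 match each, whose first base lies 35, 116 and 96 bases before the start.
Mmp13: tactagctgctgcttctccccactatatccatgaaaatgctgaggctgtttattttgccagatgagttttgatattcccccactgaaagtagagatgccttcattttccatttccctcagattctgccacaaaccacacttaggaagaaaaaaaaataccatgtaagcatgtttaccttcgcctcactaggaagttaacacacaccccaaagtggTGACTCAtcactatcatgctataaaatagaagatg
Ivl: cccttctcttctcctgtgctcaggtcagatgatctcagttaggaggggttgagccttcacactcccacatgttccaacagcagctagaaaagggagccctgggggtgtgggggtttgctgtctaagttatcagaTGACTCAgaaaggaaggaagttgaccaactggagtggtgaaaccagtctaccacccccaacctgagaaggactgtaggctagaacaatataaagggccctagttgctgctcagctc
Rptn: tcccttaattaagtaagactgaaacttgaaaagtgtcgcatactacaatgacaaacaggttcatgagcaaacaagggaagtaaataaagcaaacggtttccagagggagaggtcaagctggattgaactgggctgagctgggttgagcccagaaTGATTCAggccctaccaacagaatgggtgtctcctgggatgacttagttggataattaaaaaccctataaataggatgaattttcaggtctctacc

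The match was present in 12.6% of the 522 promoters found in the RefSeq table for the genes called higher, in 2.88% of 243 for the genes called lower, in 6.11% of 15613 for all genes tested, and in 6.87% of all 27025 promoters of the table. Among the 46 promoters found for the envelope list it was present in 17, or 37.0%, and the Sprr2 genes among them are related copies, so these promoters are not independent. These are shares of letter matches, not of bound sites. The direct repeat that PPAR and RXR bind, in the form with a 1-base spacer, was searched by its letters on both strands. It was present in 0.192% of the promoters of genes called higher, 0.301% of those of genes tested and 0% of the 25 found for the PPAR target list. Because it missed all of these listed targets, the search cannot tell whether the called genes have such sites.

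Some regulators of differentiation were also called higher. Of 31 measured transcription factors of differentiation and members of the Notch pathway, 11 were higher and 0 lower (median 0.17), with 8 higher under group weights. Grhl1, a grainyhead factor that activates desmosomal and envelope genes, read 9.81, 10.28 and 10.13 with GW0742 and 9.10, 9.40 and 9.45 with DMSO and rose by 0.76 (SE 0.10, adjusted p = 0.000153) with no overlap. Elf5, Zfp750, Hopx and Ovol1, all factors of epithelial differentiation, rose by 0.79, 0.68, 0.64 and 0.60, and Prdm1 by 0.71, with the Prdm1 call lost without DMSO array 1 or GW0742 array 2 or 3 (adjusted p of up to 0.1).

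Kallikreins are serine proteases that cut the desmosomal links of the cornified layer. Of 24 measured genes of epidermal kallikreins and protease inhibitors, 12 were higher and 0 lower (median 0.39), 10 under group weights. Klk9 read 9.68, 10.18 and 9.90 with GW0742 and 8.71, 9.07 and 8.88 with DMSO, without overlap, and rose by 1.04 (SE 0.13, adjusted p = 7.29e-05). Klk5, which activates other kallikreins, rose by 1.00, the protease Prss27 by 0.84, Klk14 by 0.83 and Klk13 by 0.64. The inhibitor Serpinb12 was higher by 0.71 (adjusted p = 0.0257), a call lost without DMSO array 1 or 3 or GW0742 array 2 (adjusted p of up to 0.17). The kallikrein genes form a cluster of related copies, and probes shared between them were not checked.

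Of 25 measured genes of the epidermal lipid barrier, 9 were higher and 0 lower (median 0.20), 6 under group weights, 5 without GW0742 array 2 and 14 without GW0742 array 1. Over all genes, 1233 were higher and 1306 lower without GW0742 array 1. Alox12b, a lipoxygenase that oxidises the linoleate of skin ceramides, read 11.40, 11.93 and 11.79 with GW0742 and 10.24, 10.82 and 10.71 with DMSO and rose by 1.12 (SE 0.17, adjusted p = 0.000501). Sdr9c7 and Pnpla1, which act on the same ceramides, rose by 1.08 and 0.83. Aloxe3 and the glucosylceramide synthase Ugcg were higher by 0.67 and 0.57, with calls lost without DMSO array 1 or GW0742 array 2 and, for Aloxe3, GW0742 array 3 (adjusted p of up to 0.156 and 0.0745).

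Junction genes moved both ways. Of 27 measured genes of desmosomes and tight junctions, 4 were higher and 2 lower. Dsc2, a desmosomal cadherin, read 11.60, 11.94 and 11.84 with GW0742 and 10.88, 11.19 and 11.20 with DMSO and rose by 0.70 (SE 0.08, adjusted p = 6.78e-05), and it was the 1 member called with group weights. Dsg1b was higher by 0.59 (adjusted p = 0.0231), and the tight junction claudins Cldn7 and Cldn3 were lower by 0.67 and 0.54 (adjusted p = 0.0283 and 0.0236). The latter 3 calls were each lost without DMSO array 1 or GW0742 array 2 or 3, and the claudins' also without DMSO array 2, with adjusted p of up to 0.181, 0.18 and 0.174.

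The main keratins of the early suprabasal layers, Krt1 and Krt10, did not pass. Krt1 read 8.89, 9.16 and 9.11 with GW0742 and 8.73, 8.77 and 8.69 with DMSO, and Krt10 read 8.09, 8.36 and 8.41 with GW0742 against 8.22, 8.01 and 8.35 with DMSO. The Krt1 arrays did not overlap but its difference of 0.32 did not pass (adjusted p = 0.19), and those of Krt10 overlapped (difference 0.09, adjusted p = 0.692). Krt78 and Krt80 were the 2 of 9 suprabasal keratins called higher, by 0.50 and 0.49, and Krt16 and Krt6b, keratins of activated epidermis, the 2 of 9 stress and simple epithelial keratins called higher, by 0.46 and 0.45. None of these 4 passed without DMSO array 1 or without GW0742 array 2, with adjusted p of up to 0.207, 0.1, 0.0863 and 0.0853. The summed linear signal of the 9 suprabasal keratins was 6690 to 7635 with GW0742 and 4982 to 6279 with DMSO, without overlap.

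Of 18 measured genes of basal keratinocytes, Trp63, the master regulator of stratified epithelium, and the collagen-binding integrin Itga2 were higher by 0.37 and 0.30 (adjusted p = 0.00101 and 0.0031) and 0 were lower, with a list median of 0.00. Both calls held in all 6 refits and with group weights. The summed linear signal of the 18 genes was 96830 to 98849 on the GW0742 arrays and 93949 to 95889 on the DMSO arrays, without overlap. Krt14, named above, differed by 0.05 (SE 0.04) and did not pass.

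**Figure D4:**
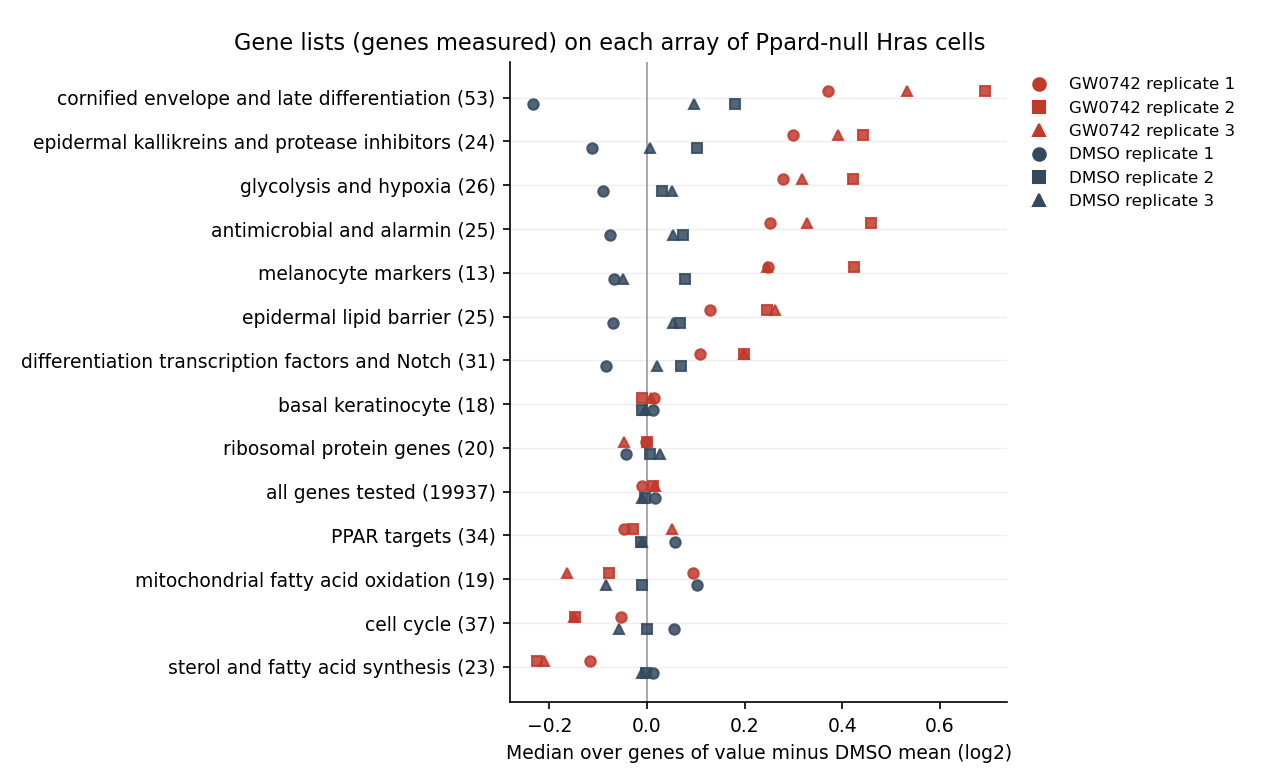
Each point is the median over the genes of a list of the log2 value minus the DMSO mean, on 1 array of Ppard-null Hras cells (red GW0742, dark DMSO, shape by replicate, number of genes in brackets). The envelope list spans 0.37 to 0.69 on the GW0742 arrays and -0.23 to 0.18 on the DMSO arrays, and the sterol list lies at -0.23 to -0.12 with GW0742.

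Alarmins and antimicrobial proteins, which keratinocytes release on barrier injury, rose in part. Of 25 measured, 11 were higher and 0 lower (median 0.32), 7 under group weights. The genes of the interleukin-36 group stood out: Il1f6 read 8.77, 9.01 and 8.91 with GW0742 against 7.93 ± 0.10 (SD, n = 3) with DMSO and rose by 0.96 (SE 0.10, adjusted p = 2.47e-05), with all GW0742 arrays above all DMSO arrays. The other agonists Il1f8 and Il1f9 rose by 1.07 and 0.90, and Il1f5, the antagonist of their receptor, by 1.10 (SE 0.12, adjusted p = 3.34e-05) from 9.87, 10.33 and 10.18 on the DMSO arrays to 10.98, 11.44 and 11.27. Pglyrp4, which binds bacterial peptidoglycan, rose by 0.85, and Defb14, a beta-defensin, was higher by 0.73, a call lost without DMSO array 1 or GW0742 array 2 or 3 (adjusted p of up to 0.249).

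Of 25 measured chemokines and cytokines, 3 were higher and 2 lower, together 20% of the list. The cytokines Il18 and Il33, both of the interleukin-1 family, rose by 0.70 (adjusted p = 0.00155) and 0.68 (adjusted p = 0.000154). Tnf, the proinflammatory tumour necrosis factor, was lower by 0.37 (adjusted p = 0.012), a call lost without DMSO array 3 or GW0742 array 2 or 3 (adjusted p of up to 0.081). Of 29 genes of the interferon response, 0 were higher and 1 lower, 3.45% of the list against 5.02% of all genes. That gene was Tlr3, the sensor of double-stranded RNA. Tlr3 read 9.38, 8.92 and 8.48 with GW0742 and 9.79, 9.54 and 9.47 with DMSO and fell by 0.68 (SE 0.13, adjusted p = 0.0035).

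Most listed genes of glycolysis and the response to low oxygen were called higher. Cells short of oxygen stabilise HIF, which raises glycolytic enzymes and its own negative regulators, the EGLN prolyl hydroxylases. Of 26 measured genes, 17 were higher, 0 lower and 9 did not pass, and the median was 0.35. The count was 10 with group weights, 9 without GW0742 array 2, 10 without DMSO array 1 and 14 to 18 without any 1 of the other arrays.

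Egln3 read 10.87, 11.36 and 11.24 with GW0742 and 9.53, 10.23 and 10.20 with DMSO, without overlap, and rose by 1.17 (SE 0.15, adjusted p = 0.000134), or 2.25-fold. Adm, the vasodilator peptide adrenomedullin, read 9.59, 10.19 and 9.89 with GW0742 against 8.37, 9.11 and 8.99 with DMSO and rose by 1.07 (SE 0.16, adjusted p = 0.000457), and Bnip3, a mitophagy receptor, read 11.98, 12.30 and 12.12 with GW0742 against 11.01, 11.43 and 11.53 with DMSO and rose by 0.81 (SE 0.12, adjusted p = 0.000259). DMSO array 1 was the lowest array for each of the 3. Egln1 and Pfkfb4, whose product stimulates glycolysis, rose by 0.50 and 0.48. Pfkfb3 was higher by 0.67 (adjusted p = 0.0492), a call lost without DMSO array 1 or GW0742 array 2 or 3 (adjusted p of up to 0.294).

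The promoters of Egln3, Adm and Bnip3 are shown because they hold letter matches to the core of the hypoxia response element that HIF binds. They are again the 250 bases before the RefSeq start on GRCm38.p6 on the gene's strand, with every match to ACGTG or GCGTG on either strand in capitals. Matches can overlap, as ACGTG and its reverse complement do in CACGTG. Egln3 (chr12:54203875-54204124, minus strand) has 1, Adm (chr7:110627407-110627656, plus strand) has 2 and Bnip3 (chr7:138909507-138909756, minus strand) has 5.
Egln3: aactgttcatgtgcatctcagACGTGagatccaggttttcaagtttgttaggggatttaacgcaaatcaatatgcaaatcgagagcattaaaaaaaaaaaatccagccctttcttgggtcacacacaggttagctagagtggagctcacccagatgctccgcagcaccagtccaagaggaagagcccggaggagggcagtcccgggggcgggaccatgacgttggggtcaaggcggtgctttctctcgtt
Adm: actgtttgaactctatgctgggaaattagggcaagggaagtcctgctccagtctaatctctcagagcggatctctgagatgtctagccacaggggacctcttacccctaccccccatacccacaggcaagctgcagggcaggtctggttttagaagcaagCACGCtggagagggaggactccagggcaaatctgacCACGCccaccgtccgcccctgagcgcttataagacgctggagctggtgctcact
Bnip3: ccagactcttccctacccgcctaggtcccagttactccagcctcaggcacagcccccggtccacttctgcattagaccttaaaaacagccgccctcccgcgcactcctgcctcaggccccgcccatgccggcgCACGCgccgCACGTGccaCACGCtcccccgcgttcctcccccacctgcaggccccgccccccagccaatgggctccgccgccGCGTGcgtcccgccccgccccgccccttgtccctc

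The match was present in 20 of the 25 promoters found for the glycolysis and hypoxia list, or 80.0%, in 51.0% of those of genes called higher, 51.4% of those of genes called lower, and 46.3% of those of all genes tested. It was thus about as common upstream of genes called lower as of genes called higher. Each core contains a CG, so the share also depends on the base composition of the promoters compared.

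In the fit of all arrays fewer genes were lower than higher, and by less, but without GW0742 array 1 the 1306 genes lower outnumbered the 1233 higher. Among genes whose arrays did not overlap, the largest fall was that of Slco4a1, an organic anion transporter, which read 9.39, 8.94 and 8.96 with GW0742 and 10.02, 10.07 and 9.95 with DMSO, lower by 0.91 (SE 0.19, adjusted p = 0.00588) without overlap. Without GW0742 array 2 its adjusted p was 0.051. Arc, an immediate early gene, read 8.88, 8.42 and 8.59 with GW0742 against 8.99, 9.66 and 9.33 with DMSO and fell by 0.70 (SE 0.13, adjusted p = 0.00207), with GW0742 array 1 just under DMSO array 1. The glutamine carriers Slc38a1 and Slc1a5 fell by 0.56 and 0.55 (adjusted p = 0.00124 and 0.00109), Slc1a5 from 9.49, 9.38 and 9.31 on the DMSO arrays to 9.10, 8.61 and 8.83.

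Other genes among the 15 largest falls without overlap included Pik3r3, a regulatory subunit of phosphoinositide kinase, lower by 0.51, and Aim2, a sensor of cytosolic DNA, by 0.50, each called in all 6 refits. Plscr1, a phospholipid scramblase, was lower by 0.71 and Steap1, a metalloreductase, by 0.59, with calls lost without GW0742 array 2 (adjusted p = 0.0629 and 0.0916). The BMP antagonist Grem1, the noncoding RNA Lncpint and the lipase Pla2g7 were lower by 0.52, 0.51 and 0.50 and lost their calls without at least 3 of the 6 arrays in turn, with adjusted p of up to 0.204, 0.161 and 0.0885.

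Enzymes of sterol and fatty acid synthesis were the list with the most falls. Of 23 measured, 9 were lower, 0 higher and 14 did not pass, the difference was below 0 for all 23, and the median was -0.20. Insig1, which retains the sterol sensor in the endoplasmic reticulum and is itself a target of SREBP, read 11.28, 11.12 and 11.11 with GW0742 and 11.55, 11.62 and 11.65 with DMSO and fell by 0.44 (SE 0.06, adjusted p = 0.00019) without overlap. Elovl6, a fatty acid elongase, fell by 0.43 and Cyp51, a demethylase of cholesterol synthesis, by 0.28 (adjusted p = 0.00109 and 0.00664). Mvd, Lss and Acly were lower by 0.28, 0.26 and 0.25, calls lost without GW0742 array 2 and at least 1 other array in turn (adjusted p of up to 0.133, 0.123 and 0.0904). The count of 9 became 2 with group weights, 4 without GW0742 array 2, 5 without DMSO array 1 or GW0742 array 3 and 14 without GW0742 array 1. Over all genes, 1306 were lower without GW0742 array 1.

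Of 37 measured cell cycle genes, 7 were lower, 0 higher and 30 did not pass (median -0.12). Cdc20, the activator of the anaphase-promoting complex, read 9.91, 9.73 and 9.58 with GW0742 and 10.19, 10.07 and 10.02 with DMSO and fell by 0.35 (SE 0.07, adjusted p = 0.00304). The mitotic genes Bub1b, Tpx2, Kif11 and Cenpa were lower by 0.30, 0.30, 0.28 and 0.27, and none of these 4 passed without GW0742 array 2 (highest adjusted p over the arrays left out 0.0567, 0.0893, 0.117 and 0.0603). The count was 1 with group weights, 1 without GW0742 array 2, 2 without DMSO array 1, 3 without GW0742 array 3, 4 without DMSO array 2 and 11 without GW0742 array 1. Over all genes, 1233 were higher and 1306 lower without GW0742 array 1. Of 21 measured genes of senescence and p53, 3 were lower and 0 higher, led by Zmat3 and Trp53inp1, which fell by 0.27 and 0.26 (adjusted p = 0.00302 and 0.00674).

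In the signalling lists the share called was 16.1% for TGF-beta and matrix, 13.3% for ERK feedback and 14.3% for the EGF family. Over all genes it was 5.02%. Of 31 measured genes of TGF-beta signalling and matrix, 5 were higher and 0 lower: besides Mmp13, Id2 read 11.31, 11.45 and 11.36 with GW0742 and 10.73, 10.80 and 10.85 with DMSO and rose by 0.58 (SE 0.05, adjusted p = 6.23e-06), Id1 rose by 0.49 and the activin antagonist Fst by 0.40. Id2 and Id1 encode inhibitors of basic helix-loop-helix factors, and Id2 had the lowest adjusted p of the genes named here. Of 30 measured genes of ERK feedback and immediate early response, Egr2, Egr3 and the phosphatase Dusp10 were higher by 0.65, 0.51 and 0.50, and Arc lower, while Fos differed by 0.37 (adjusted p = 0.0677) and did not pass. Without GW0742 array 1 the counts were 7 higher and 6 lower in the ERK list and 6 and 3 in the TGF-beta list. In that refit 1233 of all genes were higher and 1306 lower, more than in the fit of all arrays. Egr2 lost its call without GW0742 array 2 (adjusted p = 0.0603). Of 14 ligands and receptors of the EGF family, Tgfa and Hbegf were higher by 0.32 and 0.30 (adjusted p = 0.00808 and 0.00351), Tgfa not without GW0742 array 2 (adjusted p = 0.0723).

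Of 24 Wnt and BMP modulators, Wnt4 and Wnt3 were higher by 0.43 and 0.38, and both lost their call without GW0742 array 2 (adjusted p of up to 0.0668 and 0.107), with Grem1 lower. Of 16 genes of retinoic acid metabolism, Dhrs9 rose, as given above, and Aldh1a3, which makes retinoic acid, was higher by 0.34 (lost without DMSO array 3 or GW0742 array 2, adjusted p of up to 0.0803). The cystine carrier Slc7a11 was lower by 0.42 (lost without DMSO array 2 or 3 or GW0742 array 2, adjusted p of up to 0.124). It was the 1 member called of 17 NRF2 and glutathione genes, or 5.88%, against 5.02% of all genes. With Slc3a2, it was also 1 of 2 called of 23 genes of the unfolded protein and integrated stress response, or 8.7%. The share called was 12.5% for both the Wnt and BMP list and the retinoic acid list. Of 20 measured ribosomal protein genes, 0 passed in either direction by limma.

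Markers of other cell types were read for signs of a changed mix. In bulk RNA fewer cells of a type and less RNA per cell cannot be told apart. Of 13 melanocyte markers, 9 were higher with GW0742, 0 lower, and the difference was above 0 for all 13 (median 0.30). Their summed linear signal was 9909 to 12166 on the GW0742 arrays and 7864 to 8632 on the DMSO arrays, without overlap. Tyrp1, an enzyme of melanin synthesis, read 11.77, 12.12 and 11.98 with GW0742 and 11.29, 11.49 and 11.49 with DMSO and rose by 0.54 (SE 0.08, adjusted p = 0.000279), and Dct rose by 0.47. The count was 4 with group weights or without GW0742 array 2, 5 without DMSO array 3 and 6 without DMSO array 1, and none of the markers was at 0, the dimmest having a mean at percentile 35.7 of all genes. The part of melanocytes in the other results was not tested.

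Of 21 leukocyte and Langerhans cell markers, H2-Ab1, a class II histocompatibility gene, and Cd68, a lysosomal protein, were higher and 0 lower. These calls are 9.52% of the list, against 5.02% of all genes. H2-Ab1 read 8.53, 9.28 and 8.63 with GW0742 and 7.32, 7.91 and 7.91 with DMSO and rose by 1.10 (SE 0.16, adjusted p = 0.000251), and Cd68 rose by 0.68 (adjusted p = 0.000519). The defining markers Ptprc, of all leukocytes, and Cd207, of Langerhans cells, were dim, at percentiles 17.6 and 17.2 of the mean signals of all genes, and differed by 0.10 (SE 0.09) and 0.02 (SE 0.11). H2-Aa and Cd74, which act with H2-Ab1, differed by 0.09 and -0.02 and did not pass. The summed signal of the 21 markers was 3774 to 4626 with GW0742 and 3381 to 3443 with DMSO, which did not overlap. Without H2-Ab1 and Cd68, left out because they were called here, the sum of the other 19 was 2061 to 2277 with GW0742. It was 2116 to 2516 with DMSO, which overlapped. Leaving out the members that rose lowers the gap by construction, so this sum does not test for a change in leukocytes. The difference was below 0 for 10 of the 21.

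Of 20 fibroblast markers, 1 was lower, 5% of the list against 5.02% of all genes. It was Pdgfrb, lower by 0.26, with the call lost without DMSO array 1 or GW0742 array 2 or 3 (adjusted p of up to 0.172). The summed signals of 17958 to 19201 with GW0742 and 18500 to 22410 with DMSO overlapped. Of 12 endothelial and muscle markers, 0 passed by limma, and their sums were 4438 to 4698 with GW0742 and 3970 to 4437 with DMSO. Of 18 hair follicle and sebaceous markers, 4 were higher, Krt75, Hoxc13, Foxn1 and Msx2, by 1.13, 0.52, 0.38 and 0.29, where Hoxc13 and Msx2 lost their calls without GW0742 array 2 (adjusted p of up to 0.176 and 0.0568). Their sums were 12612 to 13126 with GW0742 and 11563 to 11897 with DMSO. The part of these cell types in the other results was not tested.

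The same ligand contrast in wild-type Hras cells shares no array with the one in null cells, and the difference between them was tested gene by gene as an interaction. There, 890 genes were higher with GW0742 (4.46%) and 329 lower (1.65%). Of the genes higher in null Hras cells, 359 were also higher in wild-type Hras cells, which is 51.3% of the 700 and 40.3% of the 890. Of those lower, 30 were lower in both, 9.97% of the 301 and 9.12% of the 329, and 5 genes were higher in null but lower in wild-type cells and 8 the reverse. The responses differed between genotypes for 344 genes, 1.73% of those tested: the null minus wild-type difference was negative for 241 (1.21%) and positive for 103 (0.517%). Without GW0742 array 1 of null Hras cells the count was 651, and without any 1 of the other arrays it was 240 to 348.

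Genes with a smaller response in null cells included many of the receptor's targets. The largest called null minus wild-type differences were -5.54 for Pdk4, -2.87 for the protease inhibitor gene Serpinb9e and -2.71 for Angptl4. A negative called difference was found for 10 of the 34 PPAR targets and 11 of the 19 fatty acid oxidation genes. Over all genes the share was 1.21% negative and 0.517% positive. Adm rose in both genotypes but by 3.24 in wild-type cells, a difference of -2.17 (adjusted p = 5.73e-06). Of the 26 genes of glycolysis and hypoxia, 3 had a negative and 0 a positive called difference: Egln3 rose by 1.49 (SE 0.15) in wild-type cells, and its difference of -0.32 did not pass (adjusted p = 0.684), which does not show that the responses were equal. The phospholipases Pla2g4d and Pla2g4e also rose more in wild-type cells (difference -0.95 and -1.10, adjusted p = 0.0231 and 0.00814).

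Sterol synthesis genes also had negative differences, but for Insig1, Mvd and Lss these joined a fall in null cells with a rise in wild-type cells. Of the 23 genes, 8 had a negative called difference and 0 a positive one, against 1.21% and 0.517% of all genes. In wild-type Hras cells 3 of them were higher and 0 lower, against 4.46% and 1.65% of all genes. Insig1, which fell in null cells, rose by 0.26 (SE 0.06, adjusted p = 0.00918) in wild-type cells, a difference of -0.70 (adjusted p = 3.89e-05). Mvd and Lss rose by 0.32 and 0.31 in wild-type cells and differed by -0.61 and -0.56 (adjusted p = 0.000761 and 0.000573). Among immediate early genes, Fos rose by 1.77 in wild-type cells and differed by -1.40 (adjusted p = 1.81e-05), and the chemokine gene Cxcl1 rose by 1.08 and differed by -1.44 (adjusted p = 0.000113).

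For the 103 genes with a positive difference the change with ligand was more upward, or less downward, in null than in wild-type cells. Klk14 rose by 0.83 in null Hras cells and fell by 0.71 (SE 0.10, adjusted p = 9.01e-05) in wild-type ones, a difference of 1.53 (adjusted p = 1.22e-06). Rptn gave -0.66 (SE 0.21, adjusted p = 0.0678) in wild-type cells and a difference of 1.69 (adjusted p = 0.00267), and its SD between the 3 wild-type Hras arrays with DMSO was 0.58. Id2 gave 0.00 in wild-type cells and differed by 0.58 (adjusted p = 7.49e-05), and Krt75, Il18, Klk13 and Slc5a1 differed by 0.83, 0.88, 0.75 and 0.66 (adjusted p of at most 0.00905). For Krt1 the difference of 0.85 passed (adjusted p = 0.0169), with a fall of 0.53 in wild-type cells. Of the 53 envelope genes, 4 had a positive called difference and 0 a negative one, against 0.517% and 1.21% of all genes.

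**Figure D5:**
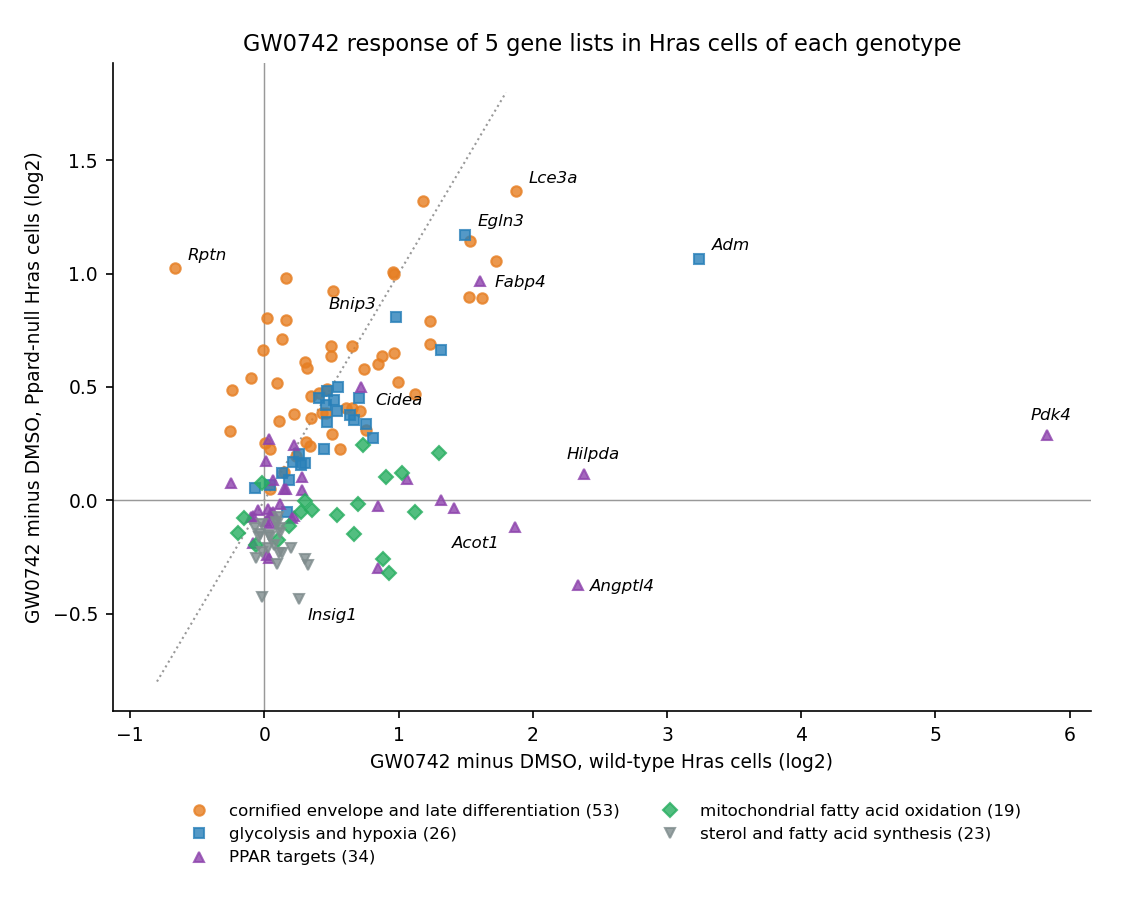
Each point is 1 gene of 5 lists, with its GW0742 minus DMSO difference (log2, 3 arrays against 3) in wild-type Hras cells on the x axis and in Ppard-null Hras cells on the y axis, and the dotted line marks equal differences. Most envelope and hypoxia genes lie above 0 in both genotypes, Pdk4 reaches 5.83 in wild-type against 0.29 in null cells, and the sterol genes all lie below 0 in null cells.

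In null cells that were only mock-infected, GW0742 changed no gene at an adjusted p under 0.05 by limma (0% of those tested), 1097 genes had an unadjusted p under 0.05, and the lowest adjusted p was 0.0616. The difference between the Hras and mock responses of null cells, which share no array, passed for 323 genes (1.62%), positive for 277 (1.39%) and negative for 46 (0.231%). Of the 700 genes higher in null Hras cells, 270 had a positive called difference, and of the 301 lower 35 had a negative one. The members of the lists followed this: the difference was positive and called for 11 of the 53 envelope genes, 9 of the 26 glycolysis and hypoxia genes, 8 of the 31 differentiation factors, 7 of the 24 kallikreins and inhibitors and all 3 of the connexins that rose. These counts move with single arrays: without GW0742 array 1 of null Hras cells 983 genes passed and without GW0742 array 2 100, and without DMSO array 1 of these cells 160. Of the null mock arrays, leaving out DMSO array 1 gave 178, GW0742 array 2 gave 182 and GW0742 array 3 gave 151.

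For single genes, the Hras minus mock difference was 1.61 for Lce3a, 1.56 for Pla2g4d, 1.54 for Mmp13, 1.42 for Scnn1g and 1.27 for Egln3 (adjusted p = 0.00582, 0.00209, 0.0147, 0.00362 and 0.00535). In null mock cells the ligand gave 0.00 for Scnn1g, -0.09 for Pla2g4d and -0.09 for Egln3, with means with DMSO of 7.54 ± 0.08, 6.88 ± 0.03 and 8.22 ± 0.17 (SD, n = 3). Fabp4, the listed PPAR target with the largest rise in null Hras cells, gave -0.12 in null mock cells, with a difference of 1.09 (adjusted p = 0.00209), and its level with DMSO was 6.90 ± 0.15 in null mock and 8.38 ± 0.09 in null Hras cells.

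Some genes split the GW0742 arrays themselves. Genes were ranked by their range among these 3 arrays. Genes with a low mean signal over all arrays and predicted or unnamed transcripts were left out. The ranking and the tally below therefore hold for the genes ranked, not for all genes tested. The 10 widest of those ranked, chosen after their values were seen, were Olfr767, Ccl19, Pcolce2, Prp2, Olr1, Cldn6, Cldn7, Adam12, Podxl and Clu. In 7 of them GW0742 array 1 stayed near or above the DMSO mean while arrays 2 and 3 lay lower: Pcolce2, which enhances procollagen processing, read 10.53, 9.44 and 9.59 against a DMSO mean of 10.52 (SD 0.09, n = 3), and Adam12, a metalloprotease, read 9.93, 8.95 and 8.99 against 9.81. In the other 3, Olfr767, Ccl19 and Prp2, array 1 lay below the DMSO mean, and Ccl19, a chemokine gene, read 9.33, 10.45 and 9.95 against 9.65. The labels used here give no difference in handling between the arrays, and the cause of the split was not tested.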

How the data were processed

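RNA of 24 samples was read on Affymetrix Mouse Gene 1.0 ST arrays, 3 per group. The values are the authors' deposited log2 signals, normalized by RMA per the submitters' processing notes, whose version is not given there. RMA equalises the distributions of the arrays, so a shift of all genes would not be seen. Precision is limited by having few arrays. Of 34760 probe sets, 21640 carried 1 gene symbol, 1321 several and 11799 none. The brightest probe set on average was kept for each of 19937 genes, and 954 genes had several. Near-identical gene copies may share probes.

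All contrasts came from 1 limma model (version 3.58.1, R 4.3.3) with all 8 groups, since 3 arrays against 3 estimate a spread poorly, with Benjamini-Hochberg adjustment over all genes and a threshold of 0.05. This assumes equal spread in all groups, which the GW0742 arrays of null Hras cells did not have. Each gene had 16 residual degrees of freedom and 4.43 from the prior. The interaction tests used the same model. The fit was tested on simulated data. With equal spread in all groups 7 of 195 calls were false. With a wider spread in this group 51 of 236 were, above the share that the threshold allows. Each gene was drawn independently, so correlation between genes within an array was not simulated.

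The genes named were the 15 largest rises and 15 largest falls without overlap, up to 6 members of each of 34 lists, a set of marker genes, and the 10 largest values of each interaction. The members and lists were chosen with earlier results of these data known. Of 812 list entries 753 were measured. Ero1l, Ctgf and Cyr61 were listed by older names and measured as Ero1a, Ccn2 and Ccn1. Alternatives covered centring, dim genes, trend and robust moderation, probe sets, arrays in the model, weights, a minimum fold, the replicate block and leaving out each array. A few genes are not reported here.

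Promoters came from RefSeq's GRCm38.p6 table, 250 bases before the first listed start, matched by symbol.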

Additional observations from a re-analysis of the deposited data

Results flagged for a closer look

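The response to GW0742 in null Hras cells was set against 2 others by an interaction test, and the genes here are those with the largest called differences. Between null and wild-type Hras cells 344 genes differed. The null minus wild-type difference in log2 response was -5.54 for Pdk4, -2.87 for the protease inhibitor gene Serpinb9e, -2.71 for Angptl4, -2.26 for Hilpda, -2.17 for Adm, -2.16 for the phosphatase gene Ppef1, -1.98 for Acot1, -1.80 for the zinc finger gene Snai3 and -1.58 for the galectin gene Lgals9. Rptn, at 1.69, was the 1 gene of these 10 with a larger value in null cells.

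Between Hras-transduced and mock-infected null cells 323 genes differed. The Hras minus mock difference was 1.61 for Lce3a, 1.56 for Pla2g4d, 1.54 for Mmp13, 1.42 for Scnn1g, 1.27 for Egln3, 1.27 for Gjb6, 1.23 for Adm, 1.22 for Il1f5, 1.22 for Klk5 and 1.21 for Dhrs9. All 10 were larger in Hras-transduced cells. The causes of these differences were not tested.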

How the results depend on the processing

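No named value that passed changed sign under the alternatives run, but 20 that did not pass did, and so did the medians of 11 lists, all within 0.06 of 0. Without GW0742 array 1 more genes were lower than higher. Of the 1001 genes called, 700 higher and 301 lower, with 194 list members, the count was 0 with the 6 arrays alone (0 higher, 0 lower, 0 members), 460 with null cells only (397, 63, 124), 364 with group weights (307, 57, 98), 5167 with array weights (2737, 2430, 398), whose estimation stopped before converging, and 175 at a minimum fold of 1.5 (165, 10, 76). The lower count was 567 without the dim 40% of genes and 496 with trend and robust moderation. Leaving out 1 array gave 393 to 2539 in all, 329 to 1233 higher, 64 to 1306 lower and 100 to 277 list members.

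The null minus wild-type count of 344 (103 positive, 241 negative) was 103 with the compared groups only (14, 89), 195 with group weights (45, 150), 1596 with array weights (757, 839) and 142 at the minimum fold (31, 111), and 240 to 651 without 1 array (54 to 214, 165 to 437). The Hras minus mock count of 323 (277, 46) was 543 without dim genes (417, 126), 512 with trend and robust moderation (118 negative), 31 with compared groups only and with null cells only (30, 1), 152 with group weights (143, 9), 2199 with array weights (1203, 996) and 146 at the minimum fold (140, 6), and 100 to 983 without 1 array (98 to 543, 2 to 440).

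The replicate block changed little: 1086 genes in all (744, 342; 204 members), 336 against wild-type (100, 236) and 362 against mock (308, 54). Same-numbered arrays correlated at 0.138, 0.0654 and 0.196 in their deviations, so the numbers were not taken as pairs. Chosen after seeing the data, the block with only the 6 arrays gave 125 (124, 1; 53 members), and group weights gave 1220 without GW0742 array 1 (599, 621; 183 members), 1 without array 2 (1, 0; 0 members) and 147 without array 3 (143, 4; 50 members).

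The design has 3 arrays per group, and the spread of the GW0742 arrays of null Hras cells exceeds that of the other groups, so the shared estimate is smaller than the spread of that group itself.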
